A study of Homo sapiens with 2 samples.

Results

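The region of chromosome 1 between 143.8 and 149.7 Mb of hg19, in band 1q21, carries NBPF genes, NOTCH2NL, PDE4DIP and copies of the U1 small nuclear RNA gene. Peaks belonged to it where their midpoint lay within chr1:143800000-149700000. This rule took in 53 of the 2692 peaks of the deposited list, out of 339 on chromosome 1. The region was selected on the positions of these same peaks, which crowd there, so its number of peaks is given as a description. The peaks were read from 1 HA immunoprecipitate of K562 cells with a GATA2 transgene. K562 is an established human chronic myelogenous leukaemia line, and GATA2 is a DNA-binding regulator of early blood cell formation. Before lysis the cells received 1 µg/mL doxycycline for 5 hours, 100 µM 4-thiouridine for 24 hours and 365 nm light at 0.3 J/cm2, which crosslinks the labelled RNA to protein. The series also has 1 input library of the same cells, whose values were not analysed here. With 1 library there is no replicate check of any peak, and the read depth behind the peaks is unknown. Every peak position is on hg19 and counted from 1.

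NBPF genes encode proteins built from tandem repeats of the Olduvai domain, formerly called DUF1220, and the family multiplied during primate evolution. NOTCH2NL genes are partial copies of NOTCH2, the gene of a Notch receptor, and are known for their activity in neural progenitors of the developing human cortex. PDE4DIP encodes myomegalin, a protein of the Golgi apparatus and the centrosome. U1 is the small nuclear RNA that pairs with the splice site at the start of an intron. The region is one of the most heavily duplicated of the human genome, and its assembly was revised between hg19 and GRCh38.

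In the RefSeq gene table of GRCh38.p14, 8 of the 9 genes named for the region were found under the same symbol, and NOTCH2NL was found as an older name of 3 genes, NOTCH2NLA, NOTCH2NLB and NOTCH2NLC. NOTCH2NLA lay next to NBPF10, NOTCH2NLB next to NBPF14 and NOTCH2NLC next to NBPF19 in the order of protein-coding genes. PDE4DIP and NBPF9 were neighbours as well. NOTCH2NLR, a further protein-coding gene with such a name, lay between NBPF26 and PPIAL4A and was left out of the comparisons below. All 14 protein-coding NBPF genes and all 21 U1 genes of biotype snRNA in that table were on chromosome 1. The U1 names also covered 123 pseudogenes, of which 22 were on chromosome 1. The table is of another build than the peaks, so no peak was placed in a gene, and none of the positions of genes is used for the results.

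Some of the copies are nearly alike in the sequence just before their gene starts. A short read from sequence that copies share can match several places equally well. The library was made from RNA, so likeness before gene starts does not tell how the reads under these peaks were placed. The sets below were not in the plan of the work, and identity between sets was not computed. Where a later gene of a set had several windows, the one most like the first gene's was taken. Windows were laid side by side at the offset with the most matches, so the likeness shown is the best found. The stretches come from RefSeq windows of GRCh38.p14 and run 5′ to 3′ on the strand of the gene. Capitals mark the bases that differ within a set. NBPF8 (chr1:120414897-120415016, plus strand), NBPF9 (chr1:149103562-149103681, minus strand) and NBPF15 (chr1:144461670-144461789, minus strand) differed at 1 of 120 positions.
NBPF8: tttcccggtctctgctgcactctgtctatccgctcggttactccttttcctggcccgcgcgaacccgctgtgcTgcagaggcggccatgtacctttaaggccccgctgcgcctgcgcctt
NBPF9: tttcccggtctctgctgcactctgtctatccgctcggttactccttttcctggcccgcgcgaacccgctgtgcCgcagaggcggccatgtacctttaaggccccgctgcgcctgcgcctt
NBPF15: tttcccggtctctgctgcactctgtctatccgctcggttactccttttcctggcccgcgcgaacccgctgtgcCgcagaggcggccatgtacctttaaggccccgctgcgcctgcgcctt
NBPF11 (chr1:148152321-148152440, minus strand) and NBPF12 (chr1:146938204-146938323, plus strand) formed a second set and also differed at 1 of 120 positions.
NBPF11: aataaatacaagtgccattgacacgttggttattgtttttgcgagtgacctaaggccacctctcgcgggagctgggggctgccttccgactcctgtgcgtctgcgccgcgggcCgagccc
NBPF12: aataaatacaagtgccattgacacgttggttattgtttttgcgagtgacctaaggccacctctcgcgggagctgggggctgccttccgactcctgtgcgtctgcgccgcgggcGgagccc
NBPF10 (chr1:146144805-146144924, minus strand) and the window of NBPF14 most like it (chr1:148595753-148595872, minus strand) formed a further set, again with 1 differing position of 120.
NBPF10: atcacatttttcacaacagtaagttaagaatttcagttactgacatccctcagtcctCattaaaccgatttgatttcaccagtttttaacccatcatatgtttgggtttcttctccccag
NBPF14: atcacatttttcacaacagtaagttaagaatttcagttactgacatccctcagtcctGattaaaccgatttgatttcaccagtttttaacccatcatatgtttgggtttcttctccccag
Over longer stretches laid side by side without gaps, NBPF8 and NBPF15 had 99.6% identity over 240 bases, NBPF8 and NBPF9 98.8% over 240 bases, and NBPF10 and NBPF14 99.5% over 215 bases. NBPF11 and NBPF12 were less alike by this measure, with 9 mismatches and 95.7% identity over 211 bases. The longest stretch before the gene starts that NOTCH2NLA, NOTCH2NLB, NOTCH2NLC and NOTCH2 itself share without a difference was 178 bases long. In NOTCH2NLA it lies at chr1:146229037-146229214 on the minus strand of GRCh38.p14.
NOTCH2NLA: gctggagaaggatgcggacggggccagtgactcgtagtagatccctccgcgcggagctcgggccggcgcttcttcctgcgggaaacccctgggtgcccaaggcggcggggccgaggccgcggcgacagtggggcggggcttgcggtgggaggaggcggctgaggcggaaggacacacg
Of the 35116 windows in the table, 4 held this stretch, 1 for each of these 4 genes. Their GRCh38.p14 positions cannot be set beside the hg19 positions of the peaks, and none of these stretches was matched to a peak. How the authors treated reads with several equally good positions is not given in the sources used here, and the part such reads play in the peaks was not tested.

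Peaks lay far more densely in the region than along the rest of the chromosome. The region held 8.98 peaks per Mb (53 peaks over 5.9 Mb, 95% Poisson interval 6.73 to 11.8). The rest of chromosome 1, without the stretch from 228740000 to 228790000, held 1.11 peaks per Mb (269 peaks over 242 Mb from the first to the last peak of the chromosome, interval 0.983 to 1.25). The ratio was 8.08. The region thus had 15.6% of the peaks of chromosome 1 on 2.38% of its span. The intervals cover counting error only. Peaks covered 44.8 kb, or 0.759%, of the region, against 0.135% of the rest. Without its fullest window the region held 35 peaks, or 7.14 per Mb. The 242 Mb of the rest include the widest stretch without a peak on chromosome 1, of 21.9 Mb. Leaving that stretch out gave 1.22 peaks per Mb for the rest, and the ratio of 8.08 counts it in.

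**Figure D1:**
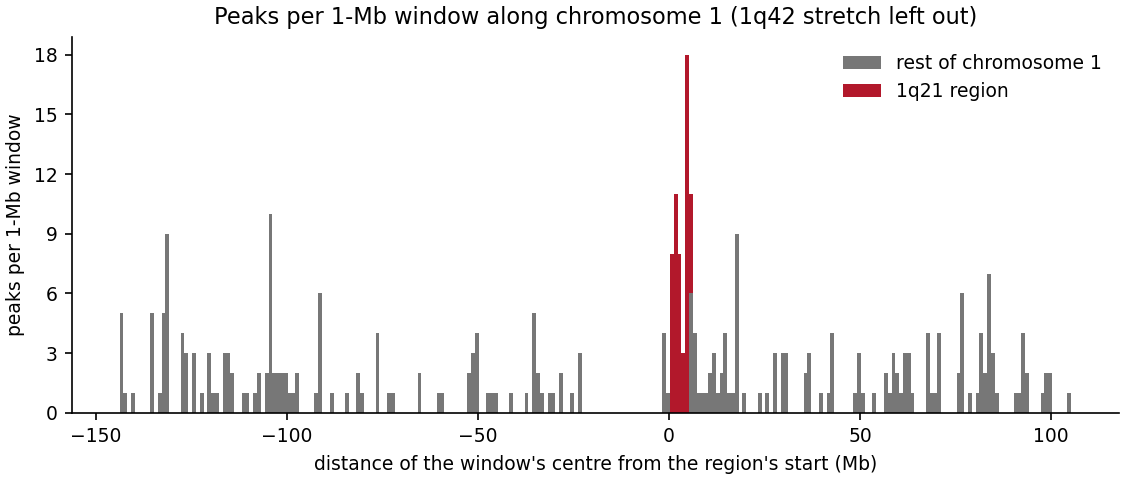
Number of peaks in each 1-Mb window of chromosome 1 against the distance of the window's centre from the start of the 1q21 region, with region peaks in red and all others in grey, leaving out the 1q42 stretch from 228740000 to 228790000. The fullest red window holds 18 peaks and the fullest other window drawn holds 10.

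By 1-Mb windows of the chromosome, the region's 53 peaks fell as 8, 11, 8, 3, 18 and 5 from 144 to 149 Mb. Of these 6 windows, 4 held 8 peaks or more. Outside the region and the 1q42 stretch 116 windows held a peak, and 3 of them held 8 or more, with a maximum of 10. With that stretch counted, the window at 228 Mb held 20 peaks, more than any window of the region. The window at 147 Mb stands out within the region for its 3 peaks, which lay between 147510228 and 147630082. The first peak of each window started at 144146663, 145277300, 146243809, 147510228, 148007124 and 149223259. The last ended at 144953120, 145969435, 146757461, 147630082, 148347256 and 149649488. Between successive region peaks, 6 stretches of over 300 kb held no peak, the widest of 876 kb. The empty sequence from the region's start to its first peak at 144146663 is also over 300 kb and is not among them. Whether unsequenced gaps of hg19 lie in these stretches was not tested.

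The limits of the region fell in empty sequence. The nearest peak before it lay from 143378002 to 143379025, 421 kb from the limit, with a length of 1024 bp and a score of 68.03. The nearest after it lay from 149783187 to 149784062, 83.2 kb from the limit, with a length of 876 bp and a score of 83.52. It was the first of 6 peaks up to 149859503 that the rule leaves out, with scores from 50.25 to 148.65 and lengths from 876 to 2014 bp.

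Within the region the peaks gathered in loci. Joining peaks with at most 100 kb between their edges gave 14 loci, of which 6 held 3 peaks or more and took in 40 of the 53 peaks. In the rest of chromosome 1 the same joining gave 175 loci, the largest with 8 peaks. The rest's share of peaks in loci of 3 or more was not counted. By the same limit, 50 of the 53 region peaks (94.3%) had a neighbour within 100 kb. The background was 52.8% over the rest of chromosome 1 (142 of 269) and 47.2% over the whole list. A neighbour within 10000 bp was present for 33 of the 53 region peaks (62.3%, 95% exact binomial interval 47.9% to 75.2%). The background was 21.2% over the rest of chromosome 1 (57 of 269, 16.5% to 26.6%) and 20.2% over the whole list. A neighbour within 1000 bp was present for 4 of the 53 region peaks (7.55%, interval 2.09% to 18.2%) against 8.92% of the rest of chromosome 1 (24 of 269, 5.8% to 13.0%) and 5.27% of the whole list. Since the region was selected on the positions of its peaks, these shares are descriptions and support nothing.

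The fullest locus, from 148254928 to 148347256, packed 16 peaks into 92.3 kb. Peaks covered 12.3% of it. Their lengths were 396 to 1738 bp with a median of 637.5 bp. The lowest score was 52.12, the median 67.2 and the highest 139.62, and 5 of the 16 exceeded 100. The score of 139.62 belonged to a peak of only 407 bp from 148326451 to 148326857. The next were a peak of 833 bp from 148292670 to 148293502, which scored 121.99, and the first peak of the locus, of 396 bp, which scored 114.45. A peak of 817 bp at 148269170 scored 110.91 and one of 447 bp at 148285090 scored 109.62. These 5 peaks were spread along the locus and did not form a block.

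The locus with the next largest number held 8 peaks, from 145277300 to 145477502. It contained the highest score of the region, 216.9, at its first peak, which was 441 bp long and ended at 145277740. That peak ranked 47 in the whole list of 2692. It also contained the shortest peak of the region, of 346 bp from 145398963 to 145399308, with a score of 119.18. The other 6 peaks of this locus scored from 51.27 to 74.48, so its median was 59.3. The 2 longest peaks of the locus, of 1404 bp at 145349011 and 1433 bp at 145355257, scored only 51.27 and 59.05.

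A locus at the start of the region, from 144146663 to 144224458, held 7 peaks over 77.8 kb. The median score was 76.96, between 55.19 and 110.91, and 5 of the 7 lay above the median of the whole list, 65.9. Their lengths ran from 365 to 974 bp. The second highest score of the region, 189.82, belonged to its longest peak, of 1983 bp from 146674545 to 146676527. This peak ranked 82 in the whole list. The second longest, of 1866 bp from 146553689 to 146555554, scored 98.1 and stood alone. The next longest, of 1738 bp, closed the fullest locus at 148345519 with a score of 62.56.

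**Figure D2:**
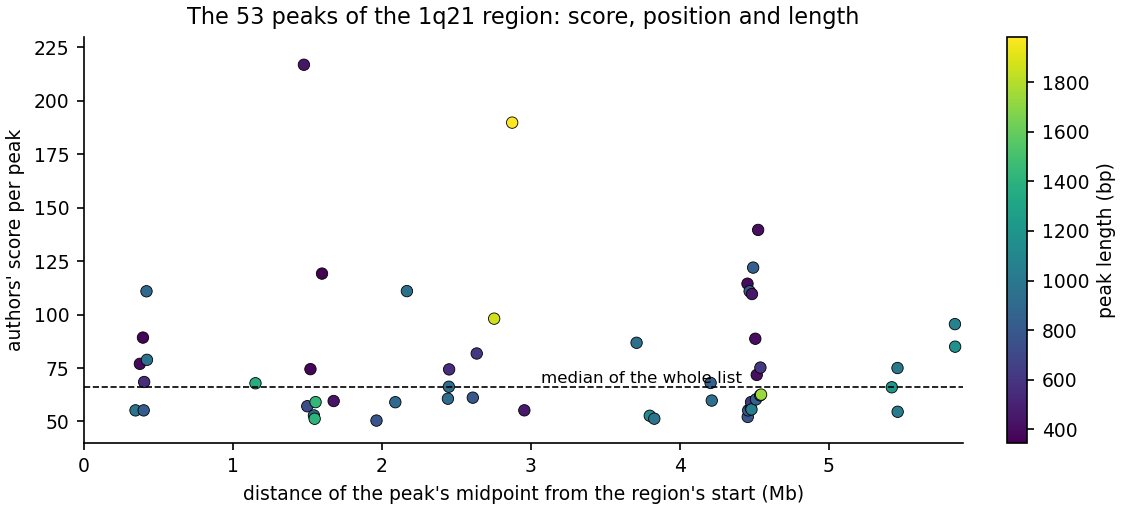
The 53 region peaks by distance of their midpoint from the region's start (x axis, Mb) and authors' score (y axis), coloured by length in bp, with a dashed line at the median of the whole list, 65.9. The 2 highest scores, 216.9 and 189.82, belong to one of the shortest peaks and to the longest peak.

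Scores in the region were close to those of the rest of the chromosome. The score is the authors' own value per peak, of unstated scale, with a lowest value of 50 in the list. Its median was 67.87 in the region (quartiles 57.12 and 88.7, range 50.41 to 216.9). In the rest of chromosome 1 it was 68.03 (quartiles 56.3 and 87.7, range 50.01 to 417.26). A score above 100 was held by 10 of the 53 region peaks (18.9%, interval 9.44% to 32.0%), against a background of 16.0% in the rest of chromosome 1. The score exceeded the median of the whole list in 29 of 53 (54.7%), against 52.0% of the rest. No test was made, since peaks of 1 library are not replicates.

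Lengths differed at the upper end. The median length was 833 bp in the region (quartiles 554 and 974 bp) and 864 bp in the rest of chromosome 1 (quartiles 553 and 1378 bp). The lower quartiles were thus within 1 bp of each other, whereas the upper quartile was shorter in the region. None of the 53 region peaks reached 2000 bp (0%, exact interval up to 6.72%). By the rule of 3 counts of the total, a count of 0 allows a share of up to 5.66%. In the rest of chromosome 1, 38 of 269 did (14.1%, interval 10.2% to 18.9%), with a longest peak of 6175 bp, and the whole list had 14.0%. At 1500 bp or more the counts were 3 of 53 (5.66%, interval 1.18% to 15.7%) against 23.4% of the rest. Short peaks had a share close to that elsewhere, with 12 of 53 under 500 bp (22.6%) against 20.8% of the rest.

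The share of broad peaks was also counted by whether a peak had a close neighbour. Among the 57 peaks of the rest with a neighbour within 10000 bp, 10 (17.5%) reached 2000 bp, and among the 212 without, 28 (13.2%) did. In the region none of the 33 peaks with such a neighbour and none of the 20 without did. The part of crowding in the lengths was not tested. The longest region peak fell short of 2000 bp by little, and 2 of the 6 peaks just beyond the region, of 2014 and 2006 bp, passed it. Peaks of 1 locus are not independent of one another, which the intervals do not allow for.

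**Figure D3:**
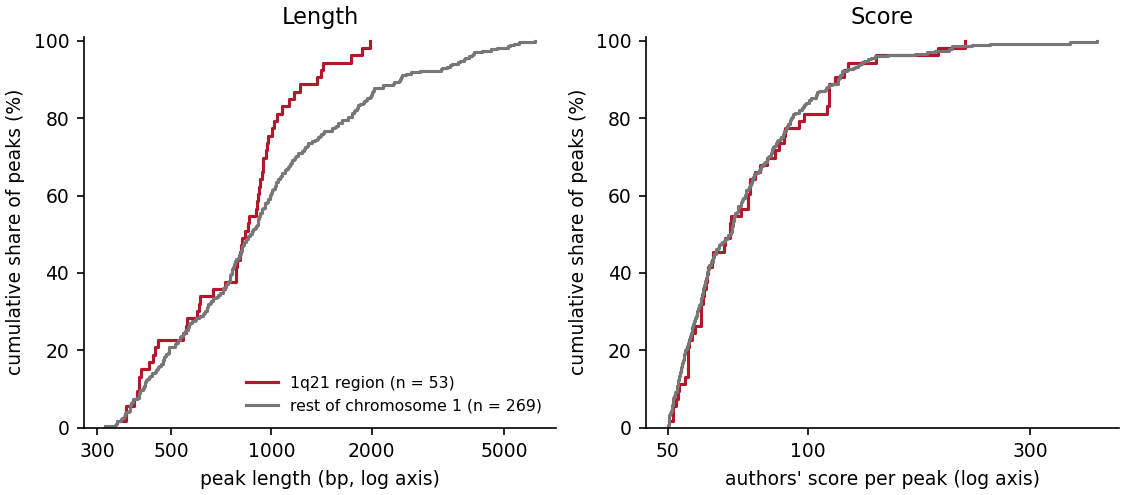
Cumulative share of peaks (y axis, %) by length in bp (left, log axis) and by authors' score (right, log axis), for the 53 region peaks in red and the 269 peaks of the rest of chromosome 1 in grey. The length curves run together up to about the medians of 833 and 864 bp and then part, the region ending at 1983 bp and the rest at 6175 bp, while the score curves stay close.

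At the limit of 500 bp, the short peaks of the region had a higher median score than those of the rest. The 12 peaks under 500 bp had scores from 55.21 to 216.9 with a median of 89.0 (quartiles 73.8 and 115.6). Of these 12, 5 exceeded 100 and 10 exceeded the median of the whole list. The 56 short peaks of the rest of chromosome 1 had a median of 74.3 (quartiles 58.2 and 90.5). Of these 56, 9 exceeded 100 and 34 exceeded the median of the whole list. With a limit of 600 bp the medians lay closer, at 75.7 in the region and 72.0 in the rest. Without the fullest 1-Mb window the region's median under 500 bp was 77.0. Peaks that were both under 500 bp and above a score of 100 made up 9.43% of the region (5 of 53, interval 3.13% to 20.7%), with a background of 3.35% in the rest of chromosome 1 and 4.46% in the whole list. These intervals overlap. Region peaks from 500 to under 1000 bp had a median score of 60.9, close to the 61.1 of such peaks in the rest. Across the 53 peaks Spearman's rho between length and score was -0.22, and across the 269 others it was 0.00. Both are descriptions over peaks that share 1 library. Of the 5 highest scores in the region, 3 belonged to peaks of 346 to 441 bp.

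Spacings of a few kb recurred along the region. The 52 spacings between successive midpoints had a median of 18.2 kb (quartiles 4.82 and 95.6 kb), against 282 kb in the rest. Of them 23 were under 10000 bp, and 13 of these 23 (56.5%) lay within 1% of another such spacing. In the rest of chromosome 1, 10 of 32 (31.2%) did. A spacing within 1% of another is easier to find where spacings are alike in size, and this was not tested. One spacing appeared 3 times to within 1%, at 7773.5 bp from 148007124, 7729 bp from 148269170 and 7773 bp from 148285090. The first and the last of these differ by 0.5 bp and start 278 kb apart. Spacings of 6260.5 and 6282.5 bp started at 145349011 and 146243809, 895 kb apart, between peaks of nearly equal length in each pair. The first pair measured 1404 and 1433 bp, and the second 917 and 922 bp.

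The most repeated distance lay within the fullest locus. Among the 52 pairs of region peaks up to 20 kb apart, 4 pairs that share no peak had midpoint distances of 4555.5, 4588, 4535 and 4579.5 bp, all within a window of 60 bp. In the rest of chromosome 1, with 68 such pairs, no window of this width held more than 3 pairs, and those 3 lay apart between 39907645 and 211848965. The 4 pairs began at 148254928 and 148277037, with 1 other peak in between, and at 148307403 and 148341505, with none. Each ran from a shorter to a longer peak, of 396 and 807 bp, 541 and 1039 bp, 400 and 856 bp, and 607 and 1738 bp. The first peak also had the higher score in 4 of 4 pairs. These scores were 114.45 against 55.19, 56.36 against 55.63, 88.7 against 60.33 and 75.21 against 62.56. The pattern was picked out after the positions were seen, and the window of 60 bp with it.

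**Figure D4:**
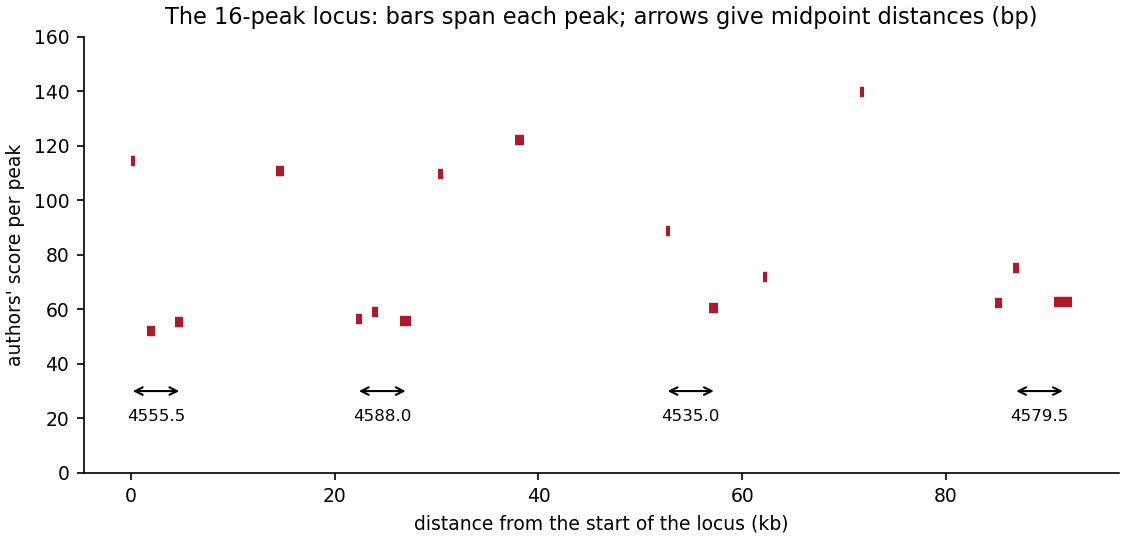
The 16 peaks of the locus from 148254928 to 148347256, each drawn as a bar over its own extent (x axis, kb from the start of the locus) at its authors' score (y axis). Arrows join the midpoints of the 4 pairs that lie 4535 to 4588 bp apart, and the left peak of each pair sits above the right one, by little in the second.

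Longer repeated patterns were few. Runs of 3 successive peaks whose 2 midpoint spacings recurred within 1%, read forwards or backwards, held 4 peaks, from 144201715 to 144224458. Their spacings of 3105.5, 15643 and 3110.5 bp read alike from both ends, and the 2 runs share the middle spacing, so a single match of 3105.5 with 3110.5 bp underlies them. Measured from start to start, 2 runs that share no peak matched within the fullest locus, with spacings of 1564 and 2786 bp from 148254928 and of 1555 and 2784 bp from 148277037. They lie 22.1 kb apart and hold the first 2 of the 4 pairs above. The lengths were 396, 783 and 807 bp in one run and 541, 597 and 1039 bp in the other, so the peaks were not copies in length. This match was found only with starts, a choice added after the positions were seen. Measured from end to end, or by midpoints with runs that share no peak, 0 region peaks lay in such runs, and with the higher scoring peaks alone the midpoint rule also gave 0. In the rest of chromosome 1 the midpoint rule took in 24 of 269 peaks, each spacing in them 72470 bp or more. The same number lay in runs that share no peak. Measured from start to start, 18 of the 269 peaks of the rest lay in such runs, against 6 of the 53 region peaks.

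One pair of neighbours had a mirrored counterpart in both spacing and length further along the region, within the fullest locus. A peak of 365 bp at 144196969 was followed 4968 bp on by one of 809 bp at 144201715. In the reversed order, a peak of 856 bp at 148311710 was followed 4998.5 bp on by one of 401 bp at 148316936. The short peak had the higher score in both, with 89.24 against 55.19 and 71.77 against 60.33. Lengths were held to within 50 bp and spacings to within 1%. The rest of chromosome 1 also gave 1 such match, with spacings of 191585.5 and 190215.5 bp, so matches by this rule are not particular to the region.

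A pair of twin peaks occurred in 2 places near the end of the region. From 149261638 to 149262640 lay a peak of 1003 bp, and after a gap of 79 bp a peak of 1020 bp ran to 149263739. Their scores were 75.01 and 54.53. At 149647169, 386 kb further on, a peak of 1074 bp ended at 149648242, and after a gap of again 79 bp one of 1167 bp ran to 149649488. These scored 95.54 and 84.99. In both places the first twin was slightly shorter and scored higher. The first 2 peaks beyond the region, at 149783187 and 149784241, had this order too, with a gap of 178 bp. Their lengths were 876 and 994 bp and their scores 83.52 and 75.14. The 2 gaps of 79 bp were the only ones of up to 1000 bp between region peaks. The whole list had 77 such gaps and 7 of up to 100 bp, and a gap of exactly 79 bp occurred in it 2 times, both here. Of the 77 gaps, 4 sizes were held more than once. This match too was noticed in the data and not tested.

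**Figure D5:**
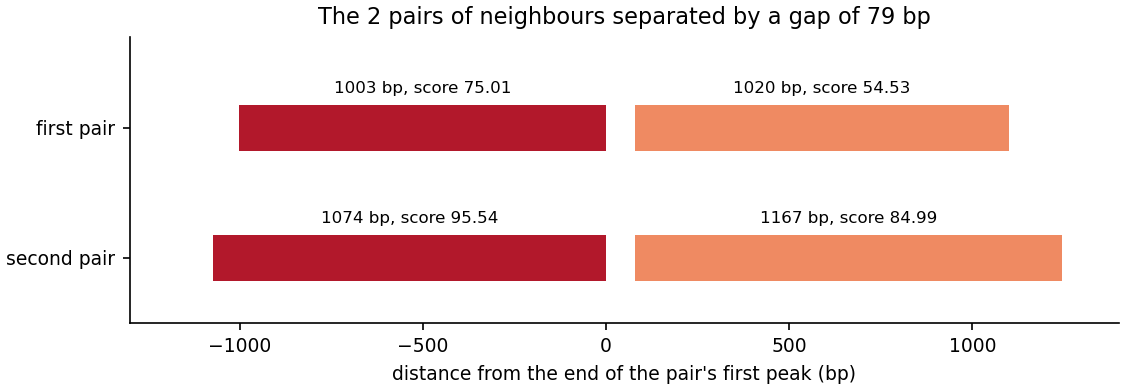
The twin peaks of the region, drawn by distance in bp from the end of each pair's first peak, with length and authors' score above each bar. Both pairs leave the same gap of 79 bp, and the first pair scores 75.01 and 54.53, the second 95.54 and 84.99.

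Some peaks far apart in the region had the same score. A score of 110.91 was held by the peak of 906 bp at 144220415 and by the one of 817 bp at 148269170, and by 1 further peak of the whole list, on chromosome 11. A score of 55.19 was held by peaks at 144146663, 144201715 and 148259278, of 974, 809 and 807 bp. It was the commonest score of the list, with 19 peaks. Equal scores as such are frequent. They were shared with some other peak by 26 of the 53 region peaks (49.1%), by 43.5% of the rest of chromosome 1 and by 45.4% of the whole list, but by only 35 of the 431 peaks above 100 (8.12%).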

How the data were processed

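One CLIP library, the HA immunoprecipitate, had a peak list. The tools in the submitters' processing notes are bedtools, Bowtie2, cutadapt, SAMtools and UMI-tools 1.0.0, without their roles, and the build is hg19. MACS, a peak caller, appears in the names of the peaks, per the deposited file. The version, the threshold, the control and the treatment of reads with several positions were not given in the sources used here, and their part in which copies of a duplicated sequence carry peaks was not tested. The deposited score per peak has no stated scale, and the other deposited values are starts and ends in bp.

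Members and lists were chosen with earlier results of these data known, and the region was fixed by its limits. Peaks were named by rule: the 5 highest scores and 5 longest, the first and last of the region and of each window, the nearest outside, and those in recurring runs. Others, such as the 4 pairs, the twins, equal scores and the peaks of each locus, were named after their values were seen. Densities carry exact Poisson intervals and shares exact binomial ones, at 95%. No test across samples was possible, and no random placement was drawn. The code that finds runs and pairs was checked on 20 simulated lists with planted patterns, which is no test of the patterns reported. The planned protein identities were not run, and RefSeq windows before gene starts were compared instead. Alternatives were the 1346 higher scoring peaks alone, merging within 100 bp, other distances, tolerances and lengths. The computing used scipy 1.17.1, pandas 2.3.3 and numpy 2.4.6 under Python 3.11.15, with figures from matplotlib 3.10.9.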

Additional observations from a re-analysis of the deposited data

How the results depend on the processing

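Of 26 alternatives, 15 left the value within its interval or, for a count, within 1.5 times. With the 1346 higher scoring peaks alone the region held 4.92 and the rest of chromosome 1 0.579 peaks per Mb. Both densities were lower since this choice leaves out peaks by construction. Their ratio was 8.49, against 8.08 with all peaks. The share with a neighbour was 7.55% at 1000 bp and 94.3% at 100000 bp. Region peaks in recurring runs numbered 0 where runs share no peak, with the higher scoring peaks and from end to end, and 6 from start to start. These 6 were other peaks than the 4 found by midpoints, although this count is among the 15. Of the 269 peaks of the rest, 24 lay in runs that share no peak and 18 in runs from start to start. Region peaks with a partner of like length and spacing numbered 0 within 20 bp and 8 within 100 bp. Within 50 bp both the region and the rest had 4 such peaks, and no count of the rest is given at the other limits. With the higher scoring peaks no distance window held more than 1 pair. Region peaks of 1500 bp or more numbered 3. The median score of short region peaks was 75.7 under 600 bp and 77.0 without the fullest 1-Mb window, against 89.0. In the rest of chromosome 1 it was 72.0 under 600 bp and 74.3 under 500 bp. Choices of start to start, end to end, the distance window, and the limits of 600 and 1500 bp were added after the data were seen. Depth is unknown, which limits all of these values. No paired analysis was possible because the series has a single immunoprecipitate.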
